A study of Mus musculus with 6 samples.

Results

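The nuclear-encoded respiratory chain genes of DU145 tumours were described as the human rows whose symbol belongs to a subunit of complexes I to V (NDUFA, NDUFB, NDUFC, NDUFS and NDUFV numbers, NDUFAB1, SDHA to SDHD, UQCR names, CYC1, COX4 to COX8 and ATP5 names), without pseudogene symbols. Of the human table's 58884 named rows, 87 matched, and 81 of them passed the filter on low counts, among 18820 tested genes. The members were chosen by name and not by any measured value. DU145 is a human prostate cancer cell line, and its cells had been injected under the skin of male nude mice, which lack a thymus. Mice were randomised when the tumours became palpable, and the tumours were sequenced from total RNA in 3 control and 3 Zelnorm libraries. Both groups share the cell line, the strain, the sex and the site of growth. Zelnorm is tegaserod, which activates serotonin receptor HTR4, and mice took it orally each day at a dose that the labels do not state. The treated samples are titled MBZ and labelled Zelnorm for treatment, so Zelnorm means the group with that label. The ages of the mice and what the controls received are not given in the sources used here. Libraries are named by their columns and always listed in one order, controls NC10, NC4 and NC9, then Zelnorm tumours MBZ_254, MBZ_257 and MBZ_259.

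The respiratory chain passes electrons from NADH (complex I) and succinate (complex II) through ubiquinone, complex III and cytochrome c to oxygen at complex IV, and complexes I, III and IV pump protons across the inner mitochondrial membrane. Complex V, the ATP synthase, lets these protons flow back through a rotating ring and makes ATP. Complexes I, III, IV and V combine nuclear-encoded subunits with a few encoded by mitochondrial DNA, whereas complex II is wholly nuclear-encoded.

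Human counts per library ran from 24602178 to 39278195, and the mouse table of the same libraries added 5817165 to 9228446, which was 15.1% to 23.4% of both tables together. The epithelial genes EPCAM, CDH1, KRT8, KRT18, KRT19 and KRT7 were abundant in every library, while the prostate antigen gene KLK3 had 3 counts in all 6 libraries. The rows of the human table are not free of host-like signal. Human ACTA1, skeletal muscle actin, had 78.4, 1104 and 953 counts in the controls and 26.6, 22.7 and 3336 in the Zelnorm tumours, in an order close to that of mouse Acta1 (975, 6875 and 6114, then 534, 732 and 18556). Human ADIPOQ and DCN, adipocyte and fibroblast genes, had 2.97 and 4.79 counts in all against 710 and 20522 for the mouse rows. Human COL1A1, a collagen gene of fibroblasts, had 104662 counts against 379725 for mouse Col1a1, and human CFD, an adipocyte gene, had 748 against 4238. Which species the reads behind such rows came from was not tested.

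No respiratory chain gene passed the test between the groups, and the differences were small and mostly toward higher means in Zelnorm tumours. Of the 81 tested members 71 had a higher fitted mean in Zelnorm tumours, against 49.1% of all tested human genes. None was called by edgeR's quasi-likelihood test with Benjamini-Hochberg adjustment (every adjusted p was 1.00), where the share of all genes called was 0%. None had an unadjusted p below 0.05 in that test, compared with 1.31% of all genes. The log2 fold change is that of the fitted Zelnorm over control mean, and its median over the members was 0.080 (range -0.28 to 0.26), against -0.0024 over all tested genes. For 68 members the difference was smaller than its standard error (SE), and it reached 2 SE for 0 members. The Zelnorm side of the count rested on MBZ_257: without it 45 of 81 members were higher and the median was 0.0066, while without MBZ_254 74 were higher and the median was 0.16. The median was 0.033 without NC10 and 0.032 without MBZ_259. With only 3 tumours in a group, an exact permutation test of a single gene could not give a p below 0.10. In bulk tumours, fewer tumour cells and less RNA per cell cannot be told apart.

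**Figure D1:**
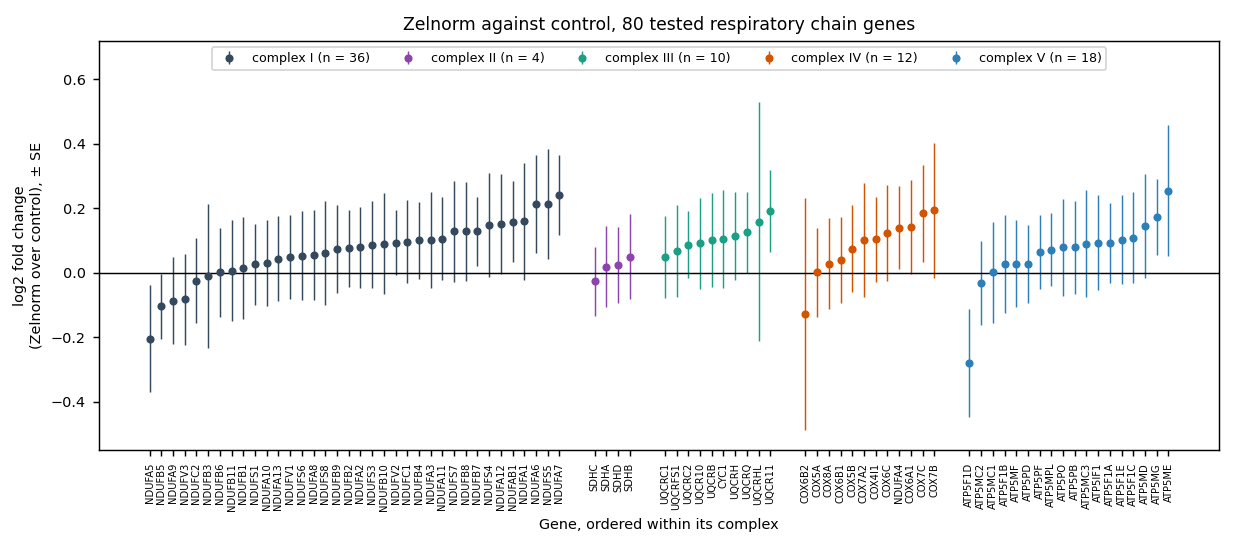
Log2 fold change (Zelnorm over control, vertical axis) with its SE for 80 of the 81 tested genes, ordered within complexes I to V along the horizontal axis. All points lie between -0.28 and 0.26, 70 lie above 0, and none is called.

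Complex I, the entry point for NADH, had 37 members, all tested, of which 31 were higher in Zelnorm tumours and none was called, with a median log2 fold change of 0.076. This median was 0.0079 without MBZ_257, 0.028 without NC10 and 0.030 without MBZ_259, but 0.12 without NC4 and 0.16 without MBZ_254. Its catalytic core takes electrons from NADH and hands them along iron-sulphur clusters to ubiquinone, and all 7 core genes were on the higher side with a median of 0.063. Levels are in CPM, the usual unit of counts scaled to library size, here after TMM scaling and without correction for transcript length. NDUFV1, which holds the NADH site, was at 97.2, 118 and 94.3 CPM in the controls and 95.4, 115 and 109.9 CPM in the Zelnorm tumours. The highest library was a control and the lowest was a control too, so the groups overlapped, and the log2 fold change was 0.050 (SE 0.13). NDUFS1, the largest iron-sulphur subunit, was at 119, 119 and 115 CPM in the controls and 103, 138 and 119 CPM in the Zelnorm tumours. Its controls lay close together while the Zelnorm tumours spread on both sides of them, and the log2 fold change was 0.027 (SE 0.13). NDUFV2 (ENSG00000178127), an iron-sulphur subunit beside NDUFV1, was at 118, 117 and 116 CPM in the controls and 118, 128 and 128 CPM in the Zelnorm tumours. Its Zelnorm tumours all lay above the controls, MBZ_254 only just, with a log2 fold change of 0.094 (SE 0.10). The host row of this gene is described further on, and whether it bears on that value was not tested.

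The other 30 complex I members are accessory subunits, which surround the core and are needed for its assembly and stability, and 24 of them were higher in Zelnorm tumours with a median of 0.078. NDUFA7 (ENSG00000267855) had the smallest p of all members. It was at 28.5, 33.0 and 29.3 CPM in the controls and 32.8, 39.0 and 35.4 CPM in the Zelnorm tumours. NC4 lay above MBZ_254, so the groups overlapped, and the log2 fold change was 0.24 (SE 0.12) and an adjusted p = 1.00 in edgeR's quasi-likelihood test with Benjamini-Hochberg adjustment. NDUFA6, an accessory subunit, was at 22.6, 26.8 and 28.7 CPM in the controls and 25.1, 32.2 and 33.2 CPM in the Zelnorm tumours. NDUFAB1, the mitochondrial acyl carrier protein, was at 26.3, 30.5 and 27.6 CPM in the controls and 29.9, 29.6 and 34.6 CPM in the Zelnorm tumours. In both genes MBZ_259 was highest and NC10 lowest, and their log2 fold changes were 0.21 (SE 0.15) and 0.16 (SE 0.13). NDUFB7, which sits on the intermembrane side, was at 51.8, 50.1 and 52.9 CPM in the controls and 54.9, 61.4 and 53.1 CPM in the Zelnorm tumours. All its Zelnorm values lay above all its controls, with a log2 fold change of 0.13 (SE 0.11).

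A few accessory subunits ran the other way. NDUFA5 was at 69.8, 43.4 and 63.8 CPM in the controls and 51.3, 53.9 and 48.6 CPM in the Zelnorm tumours. The controls spanned a wider range than the Zelnorm tumours, NC10 being highest and NC4 lowest, and the log2 fold change was -0.20 (SE 0.17). NDUFB5 was at 65.7, 61.0 and 60.0 CPM in the controls and 56.7, 58.8 and 58.2 CPM in the Zelnorm tumours. All 3 Zelnorm tumours lay below all controls, within a range of 1.16-fold over the 6 libraries, with a log2 fold change of -0.10 (SE 0.10). Over all members the count of genes with separated groups was 2 above (NDUFB7 and NDUFV2) and 1 below (NDUFB5), where 2.52% and 2.31% of all tested genes separated in those directions. NDUFB5, NDUFB7, NDUFV2, NDUFA5 and the variable gene NDUFB3 were chosen after their values were seen.

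Complex II, succinate dehydrogenase, also belongs to the citric acid cycle, and of the 5 complexes its score varied least across tumours. Its 4 genes had a median log2 fold change of 0.022, 3 of 4 being higher in Zelnorm tumours, and its share of human counts stayed between 0.0620% and 0.0650% in all 6 libraries. SDHA, the flavoprotein that oxidises succinate, was at 189, 247 and 207 CPM in the controls and 218, 215 and 218 CPM in the Zelnorm tumours. The Zelnorm tumours lay close together, inside the range of the controls, and the log2 fold change was 0.020 (SE 0.13). SDHB, the iron-sulphur subunit, was at 39.0, 38.6 and 44.2 CPM in the controls and 35.8, 43.9 and 46.6 CPM in the Zelnorm tumours, with overlapping groups and a log2 fold change of 0.051 (SE 0.13). SDHC, a membrane anchor, was the least variable member of all: its values were 289, 306 and 285 CPM in the controls and 299.7, 279 and 286 CPM in the Zelnorm tumours, a 1.10-fold range, and its log2 fold change was -0.026 (SE 0.11). SDHD, the other anchor, had a log2 fold change of 0.025 (SE 0.12). The sign of the complex II median turned without NC10 (-0.0051) and without MBZ_259 (-0.00097), and its value was 0.0089 without MBZ_257, 0.012 without NC4 and 0.060 without MBZ_254. SDHA is uncertain, because its pseudogene rows held 296% of its own counts (SDHAP3 alone 112076), and the counting could split reads among these near-identical copies.

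Complex III, which passes electrons from ubiquinol to cytochrome c, had all 10 members on the higher side with a median log2 fold change of 0.10 and none called. The median was 0.013 without MBZ_257, where UQCRFS1 and UQCRH turned sign, 0.061 without MBZ_259 and 0.22 without MBZ_254. Of the subunits that carry its redox centres, CYC1 (cytochrome c1) was at 74.3, 93.8 and 83.6 CPM in the controls and 71.8, 96.6 and 102 CPM in the Zelnorm tumours. UQCRFS1, the Rieske iron-sulphur protein, was at 66.3, 79.0 and 68.6 CPM in the controls and 60.3, 83.4 and 80.2 CPM in the Zelnorm tumours. In both, MBZ_254 was the lowest of the 6 tumours and the other 2 Zelnorm tumours were the highest, so that the Zelnorm group enclosed the controls. Their log2 fold changes were 0.10 (SE 0.15) and 0.067 (SE 0.14). The core proteins UQCRC1 and UQCRC2 had a median of 0.069, and the 6 small subunits a median of 0.12. UQCR11, one of these, was at 68.6, 66.7 and 75.6 CPM in the controls and 68.1, 86.8 and 86.0 CPM in the Zelnorm tumours. MBZ_254 lay among the controls and both other Zelnorm tumours lay above them, with a log2 fold change of 0.19 (SE 0.13). UQCRQ, a small subunit, was at 52.1, 56.2 and 55.0 CPM in the controls and 51.1, 68.4 and 58.7 CPM in the Zelnorm tumours, and its log2 fold change was 0.13 (SE 0.13). UQCRC2 was at 108, 116 and 113 CPM in the controls and 112, 122 and 125 CPM in the Zelnorm tumours, with a log2 fold change of 0.088 (SE 0.11). In both, MBZ_257 and MBZ_259 lay above every control and MBZ_254 did not. UQCRH, the hinge protein between cytochromes c1 and c, had 23332 counts over all libraries and its intronless copy UQCRHL 131, and the log2 fold changes were 0.11 (SE 0.14) and 0.16 (SE 0.37). These sequences are close enough that reads may have been divided between the rows, and UQCRHL rests on few counts.

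Complex IV, cytochrome c oxidase, had 17 listed members including NDUFA4, a subunit first assigned to complex I, and 12 were tested. Of these, 11 were higher in Zelnorm tumours with a median log2 fold change of 0.10, and none was called. Their median was 0.044 without MBZ_257, 0.053 without MBZ_259 and 0.19 without MBZ_254. COX7C, a small subunit, was at 108, 96.8 and 114 CPM in the controls and 97.3, 144 and 122 CPM in the Zelnorm tumours. MBZ_257 was highest and MBZ_254 lay with the lowest control, and the log2 fold change was 0.18 (SE 0.15). NDUFA4 was at 82.1, 74.3 and 81.7 CPM in the controls and 72.9, 92.5 and 97.0 CPM in the Zelnorm tumours. COX6A1 was at 97.6, 104 and 109.9 CPM in the controls and 90.2, 126 and 128 CPM in the Zelnorm tumours. In both genes MBZ_254 was lowest and both other Zelnorm tumours were above every control, with log2 fold changes of 0.14 (SE 0.13) and 0.14 (SE 0.15). COX4I1, the largest nuclear-encoded subunit, was at 178, 208 and 194 CPM in the controls and 176, 224 and 224 CPM in the Zelnorm tumours. COX5B, which binds zinc, was at 42.2, 52.3 and 43.9 CPM in the controls and 42.3, 54.5 and 49.0 CPM in the Zelnorm tumours. The groups overlapped for both, and the log2 fold changes were 0.10 (SE 0.13) and 0.074 (SE 0.14).

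Complex IV subunits come in isoform pairs with tissue-specific members, and the tumours carried the widely expressed forms. COX4I1 had 37417 counts over the 6 libraries against 0 for COX4I2, the isoform known from lung. COX6A1, the form of most tissues, had 20549 counts and COX6A2, the heart and muscle form, 1. COX7A2 had 9594 counts against 19 for COX7A1, another heart and muscle form. COX6B1 had 13169 counts and the testis form COX6B2 91.6, COX7B had 6469 and COX7B2 0, and COX8A had 13869 and COX8C 3. A count of 0 allows up to 0.0767 to 0.122 CPM per library, at 3 counts of the named human total, for counting error only. COX4I2, COX6A2, COX7A1, COX7B2, COX8C and the ATP synthase gene ATP5MGL (4 counts, all in NC9) were the 6 members that missed the count filter. The log2 fold changes within the tested pairs were 0.040 (SE 0.13) for COX6B1 and -0.13 (SE 0.36) for COX6B2, 0.029 (SE 0.14) for COX8A, 0.10 (SE 0.18) for COX7A2 and 0.19 (SE 0.21) for COX7B.

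COX7A2 and COX7B were among the genes that varied most between tumours, and they stood on opposite sides of their means in MBZ_254 and MBZ_257. COX7B was at 33.8, 27.1 and 34.7 CPM in the controls and 24.8, 45.9 and 38.7 CPM in the Zelnorm tumours, a 1.85-fold range with MBZ_257 highest and MBZ_254 lowest. COX7A2 was at 51.3, 46.6 and 51.6 CPM in the controls and 58.5, 38.1 and 63.9 CPM in the Zelnorm tumours, with MBZ_257 lowest and MBZ_259 highest. MBZ_257 was the lowest library for only 2 members, COX7A2 and SDHC, where it was lowest for 17.6% of all tested genes. NDUFB3 of complex I followed COX7B, with 26.8, 20.3 and 29.5 CPM in the controls and 17.4, 32.1 and 26.5 CPM in the Zelnorm tumours, and a log2 fold change of -0.010 (SE 0.22). The median member varied 1.35-fold between its highest and lowest tumour, against 1.48-fold for all tested genes, and 67 of 81 members varied by less than 1.5-fold.

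Complex V, the ATP synthase, had 19 listed members, 18 tested, of which 16 were higher in Zelnorm tumours with a median of 0.079 and none was called. Its F1 part, the catalytic head together with the central stalk, had 4 of 5 genes higher (median 0.094). ATP5F1B, the catalytic beta subunit, alone took 10.5% of all member counts (not corrected for transcript length) and was at 588, 758 and 628 CPM in the controls and 555, 714 and 743 CPM in the Zelnorm tumours. NC4 was highest and MBZ_254 lowest, and the log2 fold change was 0.028 (SE 0.15). ATP5F1A, the alpha subunit, was at 221, 242 and 239 CPM in the controls and 216, 269 and 264 CPM in the Zelnorm tumours, with a log2 fold change of 0.094 (SE 0.12). ATP5F1D, the delta subunit of the central stalk, had the largest difference of any member toward control, with 38.8, 42.0 and 35.0 CPM in the controls and 24.5, 32.2 and 38.6 CPM in the Zelnorm tumours. Its value in MBZ_254 was far below the rest, MBZ_259 lay inside the control range, and the log2 fold change of -0.28 (SE 0.17) became -0.12 without MBZ_254 and -0.44 without MBZ_259.

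The peripheral stalk, which holds the head still, had 4 of 4 genes higher with a median of 0.072. The proton-carrying c ring is encoded by 3 genes for 1 mature protein, and its median was 0.0016: ATP5MC1, ATP5MC2 and ATP5MC3 had log2 fold changes of 0.0016 (SE 0.16), -0.031 (SE 0.13) and 0.090 (SE 0.17). ATP5MC1 was at 38.5, 47.7 and 40.2 CPM in the controls and 33.4, 49.1 and 43.9 CPM in the Zelnorm tumours, so that MBZ_254 and MBZ_257 were its lowest and highest tumours and both group means were 42.1 CPM. The sign of ATP5MC1 turned with upper-quartile scaling (-0.0052). The small membrane subunits, which shape the dimer, had 5 of 5 tested genes higher with a median of 0.15. ATP5ME (subunit e) was at 23.7, 27.8 and 31.6 CPM in the controls and 23.2, 40.7 and 35.2 CPM in the Zelnorm tumours. ATP5MG (subunit g) was at 82.0, 73.8 and 83.9 CPM in the controls and 81.0, 99.5 and 89.8 CPM in the Zelnorm tumours. MBZ_257 and MBZ_259 were above every control in both genes and MBZ_254 was not, with log2 fold changes of 0.26 (SE 0.20) and 0.17 (SE 0.12). ATP5IF1, the inhibitor that blocks ATP hydrolysis by the enzyme, was at 75.0, 82.4 and 89.5 CPM in the controls and 71.3, 104 and 88.3 CPM in the Zelnorm tumours, with a log2 fold change of 0.094 (SE 0.15). The sign of the complex V median turned without MBZ_257 (-0.0075), and its value was 0.034 without MBZ_259, 0.042 without NC10 and 0.18 without MBZ_254.

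The members shared a pattern between single tumours that did not follow the groups. MBZ_254 was the lowest of the 6 libraries for 45 of 81 members (55.6%), where it was lowest for 17% of all tested genes, and it was the highest library for 0 members. MBZ_257 was highest for 39 members (48.1%, against 17.5% of all genes) and MBZ_259 for 25 (30.9%, against 14.2%), and MBZ_259 was lowest for 0. The 2 ends of the range were thus both in the Zelnorm group. MBZ_254 was lowest in 18 of 37 genes of complex I, 2 of 4 of complex II, 6 of 10 of complex III, 7 of 12 of complex IV and 12 of 18 of complex V.

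**Figure D2:**
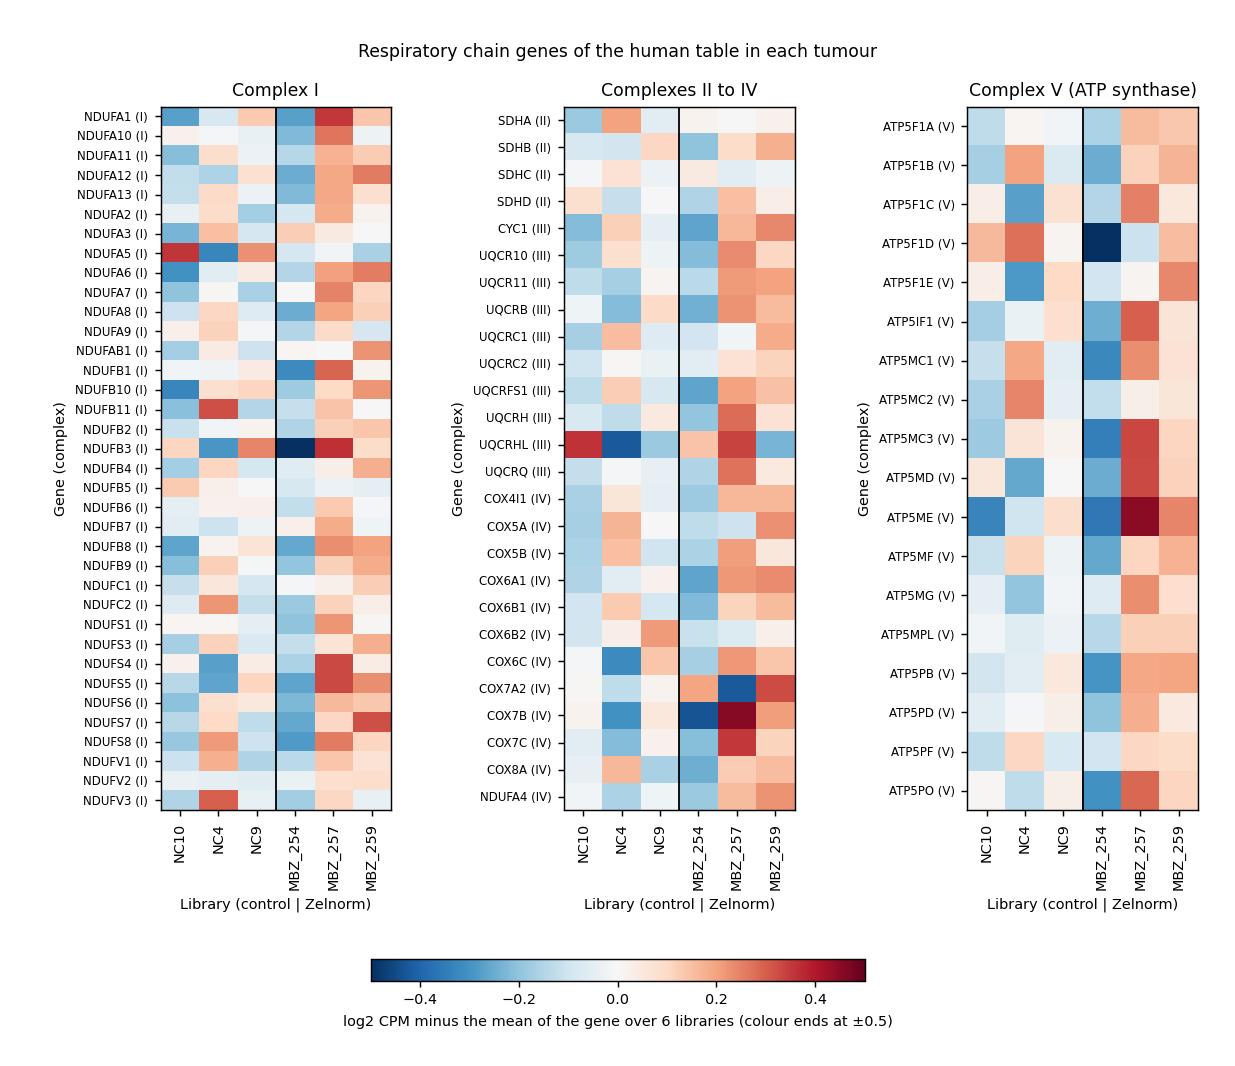
Each cell shows log2 CPM of 1 gene (rows, grouped by complex) in 1 library (columns, controls left of the line) minus the mean of the gene over 6 libraries, with red above and blue below that mean. The MBZ_254 column is mostly blue except in complex II, where SDHA and SDHC lie above their means, and the MBZ_257 and MBZ_259 columns are mostly red in all 5 complexes.

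Per library, the mean over members of log2 CPM centred on each gene's mean was -0.090, 0.0018 and -0.0085 in the controls and -0.17, 0.16 and 0.11 in the Zelnorm tumours. The group values were -0.032 ± 0.050 (SD, n = 3) for control and 0.032 ± 0.18 (SD, n = 3) for Zelnorm, so the spread among Zelnorm tumours was larger than the distance between the groups. All 5 complexes had MBZ_254 lowest. Complex II had the narrowest range, -0.072 to 0.052, and complex V the widest, -0.23 to 0.19. Members took 0.599%, 0.625% and 0.630% of named human counts in the controls and 0.560%, 0.688% and 0.667% in the Zelnorm tumours, with 95% Wilson intervals (counting error only) such as 0.557% to 0.563% in MBZ_254 and 0.686% to 0.691% in MBZ_257. The group shares were 0.618% ± 0.016 and 0.638% ± 0.069 (SD, n = 3 each), a gap of 0.020 points that the Zelnorm spread exceeded.

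The control NC4 was less often at either end of the range for the members than for all tested genes. It was the highest library for 13 of them (16.0%, against 24.7% of all tested genes), among them NDUFV1, SDHA, ATP5F1B and ATP5MC2, and the lowest for 12 (14.8%, against 24.6%), among them NDUFS4, NDUFA5, COX6C, ATP5F1C and ATP5F1E. Both shares were below those of all tested genes, although some members of one complex stood on opposite sides in this tumour. In complex V, ATP5F1B was at 758 CPM in NC4 against 588 and 628 CPM in the other controls, while ATP5F1C, the gamma subunit, was at 91.1 CPM in NC4 against 113 and 116 CPM.

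Genes outside the rule but of the same pathway were described in the same way. None of the genes in these lists was called in edgeR's quasi-likelihood test, and all are set against the 49.1% of genes higher overall. The 13 subunits encoded by mitochondrial DNA had 10 higher (median 0.053), with log2 fold changes of 0.24 (SE 0.20) for MT-ATP6 and 0.097 (SE 0.15) for MT-ND6. Their score was -0.30, 0.20 and 0.023 in the controls and -0.18, 0.23 and 0.022 in the Zelnorm tumours, so NC10 was lowest here and NC4 nearly as high as MBZ_257, unlike the nuclear-encoded members. These 13 genes took 5.66% to 7.56% of human counts. Assembly factors of complex I had 12 of 17 higher (median 0.047), with 0.25 (SE 0.17) for DMAC1 and -0.31 (SE 0.29) for NDUFAF8, whose lowest value was 12.9 CPM in MBZ_254 against 31.4 to 35.2 CPM elsewhere. Those of complex II had 2 of 4 higher, with 0.10 (SE 0.16) for SDHAF4 and -0.029 (SE 0.14) for SDHAF2. Those of complex III had 4 of 6 higher, with 0.15 (SE 0.11) for UQCC1 and -0.21 (SE 0.21) for LYRM7. Those of complex IV had 15 of 22 rows higher, with 0.33 (SE 0.22) for PET117 and 0.21 (SE 0.15) for PET100. Those of the ATP synthase had 1 of 4 higher, with -0.15 (SE 0.11) for ATPAF1 and -0.10 (SE 0.21) for FMC1.

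Transcriptional regulators of respiratory genes had 8 of 11 tested members higher (median 0.034), led by TFB2M at 0.11 (SE 0.13) and PPRC1 at 0.081 (SE 0.12). PPARGC1A, the coactivator PGC-1 alpha, had 24 counts in all 6 human libraries and was not tested. Among 16 related carriers and organisers, 13 were higher (median 0.048), with 0.15 (SE 0.13) for HIGD2A, and CHCHD10, a protein of the intermembrane space, ran against them. CHCHD10 was at 11.5, 13.4 and 8.03 CPM in the controls and 3.95, 6.79 and 6.81 CPM in the Zelnorm tumours. All Zelnorm tumours lay below all controls, with a log2 fold change of -0.90 (SE 0.26) and an adjusted p = 1.00 in edgeR's quasi-likelihood test with Benjamini-Hochberg adjustment. Citric acid cycle genes had 10 of 13 higher and a median of 0.024, with 0.16 (SE 0.16) for FH and 0.16 (SE 0.16) for SUCLA2. Glycolysis genes had 14 of 18 higher and a median of 0.063, with 0.16 (SE 0.13) for LDHA and 0.31 (SE 0.27) for ALDOC. Mitochondrial ribosomal proteins had 58 of 78 higher and a median of 0.042, with 0.17 (SE 0.10) for MRPS5 and 0.22 (SE 0.14) for MRPS6. Cytoplasmic ribosomal proteins had 22 of 22 higher and a median of 0.091, with 0.11 (SE 0.11) for RPL27 and 0.13 (SE 0.12) for RPS27A.

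The order of tumours differed between these lists. Mitochondrial ribosomal proteins had scores of -0.046, 0.0018 and -0.027 in the controls and -0.12, 0.12 and 0.072 in the Zelnorm tumours, the order of the respiratory chain members at a smaller scale. Cytoplasmic ribosomal proteins were above their mean in MBZ_254 (0.049), and glycolysis genes were at 0.11 there, where the respiratory chain members were lowest. No test of these list scores was made.

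**Figure D3:**
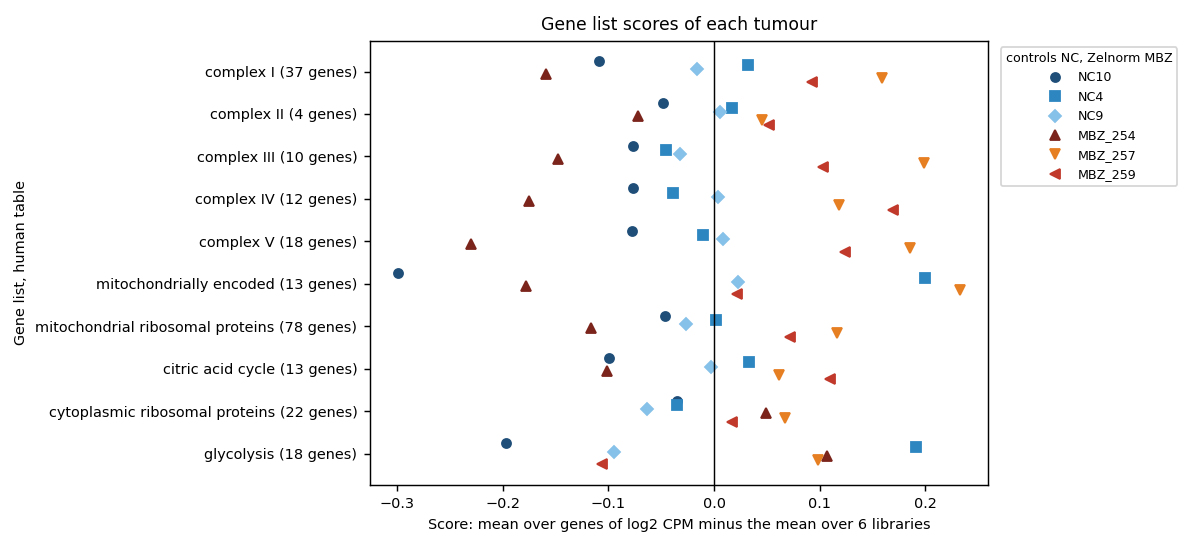
Mean over each list (vertical axis, number of genes in brackets) of log2 CPM minus the mean over 6 libraries (horizontal axis), with 1 point per tumour, controls in blue and Zelnorm in red and orange. MBZ_254 is at the low end in all 5 complexes (-0.17 over all members) and MBZ_257 or MBZ_259 at the high end, while glycolysis and cytoplasmic ribosomal proteins have MBZ_254 above 0.

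The same genes were read in the host cells of these tumours through the mouse table. Of 86 host counterparts 80 were tested among 14459 mouse genes, and 59 were higher in Zelnorm tumours, against 53.9% of all tested mouse genes. None was called by edgeR's quasi-likelihood test and none had an unadjusted p below 0.05, where 0% and 1.75% of mouse genes were. The median log2 fold change was 0.043, against 0.019 for all mouse genes. Without MBZ_259 only 18 of the counterparts were higher. The smallest p values belonged to Ndufa5, Ndufa6 and Uqcrfs1. Ndufa5 was at 7.54, 8.81 and 10.3 CPM in the controls and 10.5, 10.2 and 17.3 CPM in the Zelnorm tumours, with a log2 fold change of 0.51, SE 0.28. Ndufa6 was at 26.1, 22.9 and 36.1 CPM in the controls and 27.6, 48.1 and 41.1 CPM in the Zelnorm tumours (0.45, SE 0.26). Uqcrfs1 was at 30.6, 44.3 and 37.0 CPM in the controls and 40.5, 40.7 and 51.8 CPM in the Zelnorm tumours (0.25, SE 0.19). Groups overlapped in all 3.

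The host counterparts ranked the tumours differently from the human members. MBZ_259 was the highest library for 55 of 80 counterparts, where it was highest for 13% of mouse genes, and MBZ_257 the lowest for 48, against 29.3%. The counterpart score was -0.10, 0.077 and 0.025 in the controls and -0.13, -0.23 and 0.37 in the Zelnorm tumours. MBZ_257, highest for the human members, was thus lowest for the host copies. The muscle isoforms Cox6a2 and Cox8b are among these counterparts, and Cox6a2 is also a muscle marker. Without them the score of the other 78 was -0.082, 0.038 and -0.0044 in the controls and -0.074, -0.18 and 0.30 in the Zelnorm tumours. Skeletal muscle genes of the host lay in nearly the same order as the full score. Of 10 tested markers 9 had a higher fitted mean in Zelnorm tumours, against 53.9% of mouse genes, and none was called. Their mean score was lower in Zelnorm tumours (-1.7) than in controls (1.7), with -4.8, -4.4 and 4.2 in the Zelnorm tumours. Their summed level over 9 marker genes was 408, 2821 and 2007 CPM in the controls and 74.6, 131 and 6476 CPM in the Zelnorm tumours, and Myh4 and Mylpf had 0 counts in MBZ_254. The muscle isoform Cox6a2 (GRCm38 chromosome 7, 128205435 to 128206387) had 3, 65 and 73 counts in the controls and 1, 0 and 243 in the Zelnorm tumours, and the muscle isoform Cox8b (chromosome 7, 140898945 to 140900446) had 5, 24 and 15, then 0, 1 and 61. Fibroblast and adipocyte markers of the host also varied between tumours, and none of the 5 fibroblast or 7 tested adipocyte markers was called. The score of 5 fibroblast markers was 0.016, 0.54 and 0.0067 in the controls and 0.29, -0.86 and 0.0034 in the Zelnorm tumours, lowest in MBZ_257. The summed level of 8 adipocyte markers was 325, 982 and 621 CPM in the controls and 295, 131 and 220.0 CPM in the Zelnorm tumours, all below the controls. The score of the 7 tested adipocyte markers was 0.24, 1.7 and 1.0 in the controls and -0.29, -0.93 and -1.8 in the Zelnorm tumours, lowest in MBZ_259. Of these 7 markers, 0 had a higher fitted mean in Zelnorm tumours, against 53.9% of mouse genes. An unadjusted p below 0.05 in edgeR's quasi-likelihood test was found for 6 of them, against 1.75% of mouse genes. The part of muscle, fibroblasts and adipocytes in the host values was not tested. MBZ_254 and MBZ_257 had the lowest summed host muscle markers of the 6 tumours and stood at opposite ends of the human member score. A part of host muscle in the human values was not tested either.

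Whether tumour and host copies differed in their response was tested over 11145 same-name pairs, 78 of them members, with the library as a block. No pair was called in that edgeR quasi-likelihood test (0% of all pairs; smallest adjusted p = 0.094 by Benjamini-Hochberg, and 1.00 for the members), and 178 pairs had an unadjusted p below 0.05, of which 2 were members. The log2 difference, mouse minus human, was -0.46 (SE 0.18) for NDUFA7 and 0.67 (SE 0.30) for NDUFA5, followed by 0.33 (SE 0.19) for ATP5F1D.

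The ratio of the mouse row to the human row of a gene showed which rows kept step with each other. The ratio of the table totals varied 1.72-fold between libraries, and MBZ_257 had the lowest ratio for 74 of 78 member pairs (94.9%), against 79.0% of all pairs. The host row of NDUFV2 did not follow this: Ndufv2 (GRCm38 chromosome 17, 66078638 to 66101559, minus strand) held 61.1%, 59.2% and 57.9% of the human count in the controls and 59.9%, 58.0% and 59.7% in the Zelnorm tumours, a 1.06-fold range. Uqcrb (chromosome 13, 66900617 to 66905378, minus strand) held 9.15% to 11.4% of the human count, a 1.24-fold range. These 2 of 78 member pairs, 2.56%, varied by less than 1.3-fold, against 8.99% of all pairs. At the median the mouse row held 12.6% of the human count for members and 20.6% for all pairs. Which species the reads of the Ndufv2 and Uqcrb rows came from was not tested. Among members whose mouse row held under 10% of their counts or was not tested, 20 of 27 were higher in Zelnorm tumours. This was a smaller share than the 71 of 81 over all members, and 49.1% of all tested human genes were higher. Whether the host share of a gene bears on its direction was not tested.

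**Figure D4:**
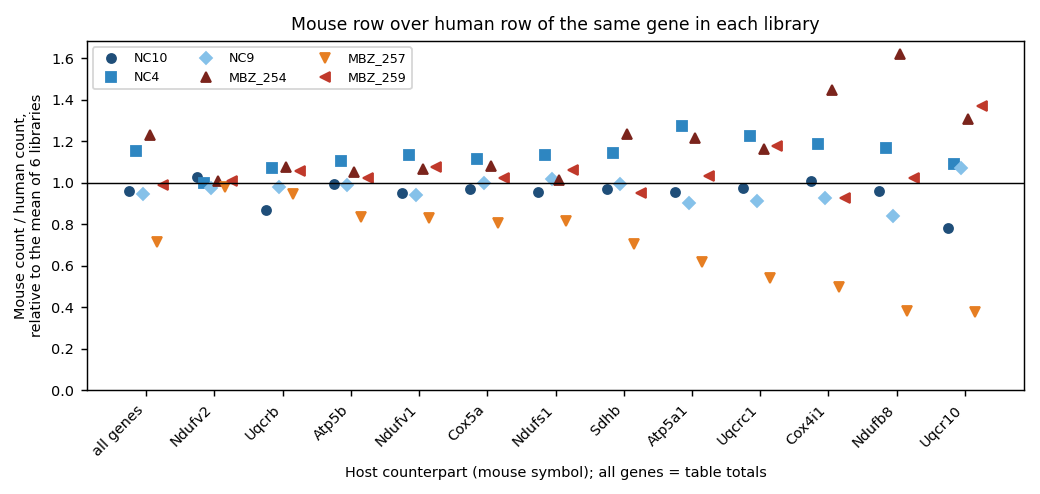
Mouse count over human count of the same gene in each library, divided by its mean over 6 libraries (vertical axis), for the table totals and 12 host counterparts (horizontal axis), 1 point per library. The Ndufv2 points fall together within a 1.06-fold range, while the totals span 1.72-fold with MBZ_257 lowest.

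Many respiratory chain genes are known targets of the activator NRF1 and of the ETS factor GABP, so the promoters of the host counterparts were searched for their core letters; human promoters were not analysed here. RefSeq windows of 250 bases before the start, on GRCm38.p6, matched 65 of the 80 tested counterparts by symbol. The NRF1 core GCGCATGCG, on either strand, was in 6 of them (9.23%) and in 1.64% of 27025 promoters of all genes. The ETS core CCGGAAGT, on either strand, was in 3 (4.62%) against 3.23%, and 0 promoters held both. A match is a description of these letters and not a site. In 4 of the 6 genes the NRF1 letters run on to a palindrome, so the matches on both strands overlap. These 4 are shown because their promoters carry the same letters in genes of 3 complexes: Cox6a1 of complex IV at chr5:115349092-115349140 (minus strand), Atp5k, the mouse ATP5ME, at chr5:108434421-108434469 (minus strand), Atp5g2, the mouse ATP5MC2, at chr15:102671061-102671109 (minus strand) and Ndufa11 of complex I at chr17:56717682-56717730 (plus strand), with the core in capitals.
Cox6a1: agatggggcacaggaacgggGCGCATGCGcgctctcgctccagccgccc
Atp5k: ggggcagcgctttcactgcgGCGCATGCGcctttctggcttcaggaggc
Atp5g2: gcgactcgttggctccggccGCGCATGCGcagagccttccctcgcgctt
Ndufa11: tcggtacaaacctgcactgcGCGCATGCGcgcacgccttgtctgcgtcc
The log2 fold changes of these mouse genes were 0.067 (SE 0.18) for Cox6a1 and 0.36 (SE 0.28) for Atp5k. Those of Atp5g2 and Ndufa11 were 0.20 (SE 0.90) and -0.11 (SE 0.23). The human genes, whose promoters were not searched, had 0.14 (SE 0.15) for COX6A1 and 0.26 (SE 0.20) for ATP5ME. ATP5MC2 had -0.031 (SE 0.13) and NDUFA11 0.11 (SE 0.13).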

How the data were processed

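RNA of 6 xenograft tumours (3 control, 3 Zelnorm) was read as 1 human and 1 mouse gene table. Values are estimated counts per gene, deposited by the authors; 38.0% of the human and 27.0% of the mouse values above 0 were not whole, so all were rounded where a count model was fitted, although whole counts had been assumed in the planned design. The submitters' processing notes name HISAT2, StringTie, DESeq2, edgeR, GRCh38 and GRCm38, without roles or versions. Strand handling and how reads were assigned between the species are not given in the sources used here. Rows with no gene name (574 human, 856 mouse; 0.407% to 0.518% of human counts) were left out.

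Columns carry the group prefix of a sample title and a number found in no label, so each was tied to a group only. All genes of a table were fitted together with edgeR 4.0.16 (R 4.3.3; filterByExpr, TMM, quasi-likelihood test, 2-sided) on the 6 libraries without covariates, with Benjamini-Hochberg adjustment over all tested genes and a threshold of 0.05. The labels tell the tumours apart without identifying mice, and the p-values therefore reflect the spread between these samples alone. Log2 CPM for scores used a prior count of 2. Scripts were tested on simulated data. Intervals are 95% Wilson intervals, and depth limits the precision as given with each share.

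Members are the rows that the naming rule finds. 1 of them is included in the counts and medians and is not reported here by itself. Named with values were any called member, the 3 smallest p in each complex, a list of core subunits, the isoform sets, the 2 smallest p of each other list and the 3 smallest of the host counterparts and of the tumour-host difference; other names were chosen after their values were seen. Members, lists and tests were chosen with earlier results of these data known. Alternatives were RLE and upper-quartile scaling, DESeq2 1.42.0, limma-voom (limma 3.58.1), no filter, a mean count of at least 50, pseudogene counts added, other denominators and each library left out. Promoter sequences are from RefSeq (GRCm38.p6) and mouse coordinates from GENCODE.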

Additional observations from a re-analysis of the deposited data

How the results depend on the processing

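No respiratory chain member was called by edgeR's quasi-likelihood test, DESeq2 or limma-voom under any alternative that was run, and the median log2 fold change of the members stayed above 0 under each. Human genes called were 0 in the reported edgeR fit, 1 with DESeq2 (TMEM238) and 61 without the count filter, CHCHD10 among them (-0.89, adjusted p = 0.0362 by Benjamini-Hochberg). With 1 library left out, members higher in Zelnorm tumours ranged from 45 (without MBZ_257) to 74 (without MBZ_254) and their median from 0.0066 to 0.16. Host counterparts higher ranged from 18 (without MBZ_259) to 65, and their median from -0.12 to 0.17. Members with an unadjusted p below 0.05 in edgeR's test numbered 6 without MBZ_254, 2 without NC4 and at most 1 without any other library. Outside the left-out libraries, ATP5MC1 was the 1 of 65 named genes whose sign turned (-0.0052 with upper-quartile scaling, -0.0018 with limma-voom, -0.00090 with a mean count of at least 50). With a library left out, 24 of the 65 turned at least once, with these lowest and highest log2 fold changes: ATP5F1B -0.052 to 0.15, ATP5IF1 -0.043 to 0.22, ATP5MC1 -0.12 to 0.14, ATP5MC2 -0.11 to 0.095, ATP5MC3 -0.069 to 0.26, COX5B -0.016 to 0.17, COX6B1 -0.030 to 0.15, COX7A2 -0.046 to 0.30, COX7B -0.0053 to 0.41, COX8A -0.040 to 0.15, FMC1 -0.26 to 0.069, MT-ND6 -0.0035 to 0.21, NDUFAF8 -0.55 to 0.011, NDUFB3 -0.22 to 0.20, NDUFS1 -0.087 to 0.13, NDUFS7 -0.012 to 0.27, NDUFV1 -0.0075 to 0.16, SDHA -0.062 to 0.13, SDHAF2 -0.14 to 0.036, SDHB -0.028 to 0.15, SDHC -0.054 to 0.0061, SDHD -0.045 to 0.10, UQCRFS1 -0.019 to 0.20 and UQCRH -0.0062 to 0.23. The difference in the member share of counts was 0.025 percentage points without mitochondrially encoded genes in the total. The cause of these shifts was not tested. With 3 tumours a group, the SE of most members (0.10 to 0.20) limits what could be called. No paired analysis was possible because the columns carry numbers that no label repeats, so replicate numbers could not be tied to libraries.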
